A study of Caenorhabditis elegans with 2 samples.

Results

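The genes described here encode the subunits of the nuclear RNA polymerases and of the general transcription factor TFIID in Caenorhabditis elegans. They were taken by name, as the protein-coding genes of the Ensembl annotation (WBcel235, release 115) called rpb, rpoa, rpc, taf or tbp with a number. The rule uses no measured value, although the set was picked with earlier results of these data known. The rule gave 37 of the 19973 nuclear protein-coding genes: 4 for polymerase I (rpoa), 6 for polymerase II (rpb), 5 rpb genes whose products are shared by polymerases I, II and III, 4 for polymerase III (rpc) and 18 for TFIID (taf and tbp). The measurements come from TF ChIP-seq of eGFP-tagged NHR-77, a nuclear hormone receptor, in whole L1 larvae, the first larval stage, in 2 biological replicates. Both replicates were strain OP353, of both sexes, and carried unc-119(tm4063) on chromosome III and the tagged transgene wgIs353. No second genotype or condition is among the samples, and the target of the antibody is given in the labels only as nhr-77. A transgene of this kind adds a tagged copy of the receptor, so the peaks report where the tagged protein was recovered, averaged over all cells of the larva.

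Polymerase II transcribes the protein-coding genes, polymerase I the large ribosomal RNAs, and polymerase III the transfer RNAs, the 5S ribosomal RNA and other short RNAs. The enzymes have their own large subunits and hold several small subunits in common. At polymerase II promoters TFIID, made of the TATA-binding protein TBP and the TBP-associated factors (TAFs), is the factor that recognises the core promoter and seats the polymerase with TFIIA and TFIIB. The products of these genes are needed in nearly every cell type.

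A gene was called bound when the summit of a peak in the authors' IDR-thresholded list (the reproducible set, 2285 peaks in ce11) lay between 1000 bp upstream and 250 bp downstream of its annotated 5' end. Signal is the authors' own value for the height of a peak, used here to rank peaks within a list. It ran from 58.7 to 809 in the reproducible set, with a median of 92.4. The pooled list (13500 peaks) gives the same signals for the member peaks it shares with the reproducible set. It and the lists of replicate 1 (21272 peaks) and replicate 2 (24201 peaks) are relaxed and include background, by their authors' description. They hold no read totals, so depth is unknown, and the exact (Clopper-Pearson) 95% intervals below cover counting error only.

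The DNA under the summits is shown for the 7 bound members whose sequence can be given, because several of these sites hold words in common. Each sequence holds the summit base and 100 bases on either side, from the ce11 genome (RefSeq), read 5' to 3' on the strand of the gene. The windows are chrII:14059865-14060065 (plus strand) for rpb-11, chrIII:4918051-4918251 (minus) for rpb-8, chrIV:9147041-9147241 (minus) for rpb-12, chrX:16331984-16332184 (plus) for taf-3, chrII:9669010-9669210 (plus) for taf-8, chrIII:10505299-10505499 (minus) for taf-11.3 and chrIII:11870053-11870253 (minus) for taf-12. Capitals mark GAGAGA on either strand, and any word of at least 10 letters that also stands in the window of another bound member. None of the windows touches an annotated untranslated region, and only that of taf-11.3 reaches annotated coding sequence (20 bases).
rpb-11: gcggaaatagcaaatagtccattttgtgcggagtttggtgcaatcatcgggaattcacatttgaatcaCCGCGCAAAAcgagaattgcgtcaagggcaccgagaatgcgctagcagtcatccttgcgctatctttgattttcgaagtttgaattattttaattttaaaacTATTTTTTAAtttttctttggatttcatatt
rpb-8: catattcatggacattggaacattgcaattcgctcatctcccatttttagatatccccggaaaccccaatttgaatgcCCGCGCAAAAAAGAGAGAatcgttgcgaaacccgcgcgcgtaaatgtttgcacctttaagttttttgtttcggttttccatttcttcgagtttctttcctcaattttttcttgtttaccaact
rpb-12: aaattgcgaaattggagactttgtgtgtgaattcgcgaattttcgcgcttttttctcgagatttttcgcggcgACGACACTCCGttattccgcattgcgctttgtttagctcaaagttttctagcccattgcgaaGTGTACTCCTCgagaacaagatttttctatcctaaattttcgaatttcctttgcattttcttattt
taf-3: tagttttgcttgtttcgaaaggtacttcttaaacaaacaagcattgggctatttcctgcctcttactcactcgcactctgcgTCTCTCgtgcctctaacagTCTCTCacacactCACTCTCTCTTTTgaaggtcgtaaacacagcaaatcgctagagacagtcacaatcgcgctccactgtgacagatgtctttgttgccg
taf-8: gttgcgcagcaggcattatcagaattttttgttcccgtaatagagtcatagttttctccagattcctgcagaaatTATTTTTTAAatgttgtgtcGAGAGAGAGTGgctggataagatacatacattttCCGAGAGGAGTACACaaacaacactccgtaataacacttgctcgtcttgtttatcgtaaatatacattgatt
taf-11.3: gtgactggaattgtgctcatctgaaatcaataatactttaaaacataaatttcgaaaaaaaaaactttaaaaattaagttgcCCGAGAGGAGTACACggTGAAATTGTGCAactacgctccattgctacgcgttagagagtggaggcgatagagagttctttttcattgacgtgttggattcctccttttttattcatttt
taf-12: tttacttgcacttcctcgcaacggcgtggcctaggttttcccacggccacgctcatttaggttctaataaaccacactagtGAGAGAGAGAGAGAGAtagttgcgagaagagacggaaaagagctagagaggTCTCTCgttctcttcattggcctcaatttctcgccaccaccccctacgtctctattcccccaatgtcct

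The windows of rpb-12, taf-8 and taf-11.3 share the word GAGGAGTACAC, on the opposite strand in rpb-12. It is centred 40 bp downstream of the summit in rpb-12, 38 bp downstream in taf-8 and at -9 bp in taf-11.3, in the direction of the gene. In taf-8 and taf-11.3 the match goes on to CCGAGAGGAGTACAC. Among all 2285 reproducible summit windows of this length, 23 (1.01%) hold GAGGAGTACAC on either strand. Of these 23, 20 lie in a protein-coding promoter, as do 1278 of all 2285 windows. The windows of bound members all lie in promoters, by selection. The 300-base stretches from 250 bases before to 50 after the start hold it for 73 of 19973 protein-coding genes (0.365%). The rpb-11 and rpb-8 windows share CCGCGCAAAA, which 6 of all windows hold (0.263%). These words were found by comparing the member windows with each other, 8 words of at least 10 letters in all, so their number among the members is a description and was not tested.

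A further 7 words were searched for by name, on both strands. GAGAGA stood in 4 of the 9 windows of bound members (rpb-8, taf-3, taf-8 and taf-12), beside 44.9% of all reproducible windows. AGGTCA, a word that many nuclear receptors bind, was in 0 of 9 windows, beside 5.56% of all, and AGTGCA, of the type bound by the receptor DAF-12, was in 1 (taf-12), beside 9.89%. TATAAA stood in 1 window (taf-4, beside 12%), TTTCAG in 2 (15.3%), a run of TTTTTTTT in 1 (11.9%) and GATAAG in 1 (6.48%). In the 300-base promoters, AGGTCA stood in 2 of the 9 bound members and 4 of all 37, beside 8.27% of all genes, and AGTGCA in 3 of 37, beside 9.64%. GAGAGA stood in 6 of the 37 promoters (beside 21.8%), TTTTTTTT in 19 (beside 32.5%) and GATAAG in 7 (beside 16.7%). TATAAA stood in 16 of the 37 members, beside 37.9% of all genes, and TTTCAG, the splice acceptor word, in 26 of 37, beside 51.7%. In the promoters of the 9 bound members, TTTCAG stood in 7, TTTTTTTT in 5, GAGAGA in 3, GATAAG in 2, and AGTGCA and TATAAA in 1 each. GAGAGA overlaps the shared words AAAAGAGAGA and AGAGAGAGTG. The median GC content was 39.3% in the windows of bound members (34.3 to 51.2%) and 43.8% in all reproducible windows. The windows of bound members all lie in promoters, but only 1278 of all 2285 do. The GC content and word shares of the windows therefore compare unlike sets.

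Of the 37 genes, 9 were bound (24.3%, exact 95% interval 11.8 to 41.2%), beside 8.60% of all protein-coding genes. They were the polymerase II subunit genes rpb-3 and rpb-11, the shared subunit genes rpb-8 and rpb-12, and the TFIID genes taf-3, taf-4, taf-8, taf-11.3 and taf-12. By role the counts were 0 of 4 for polymerase I, 2 of 6 for polymerase II (33.3%, 4.33 to 77.7%), 2 of 5 for the shared subunits (interval 5.27 to 85.3%), 0 of 4 for polymerase III and 5 of 18 for TFIID (27.8%, 9.69 to 53.5%). The interval for 0 of 4 reaches 60.2%, so the classes cannot be ordered from these counts. A further 12 genes had a summit in the pooled list but not in the reproducible set, and each of these also had one in at least 1 replicate list. Another 4 had a summit only in replicate lists, and 12 had none in any list. No matching shares of all genes are given for these last groups, so their counts only describe the members.

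**Figure D1:**
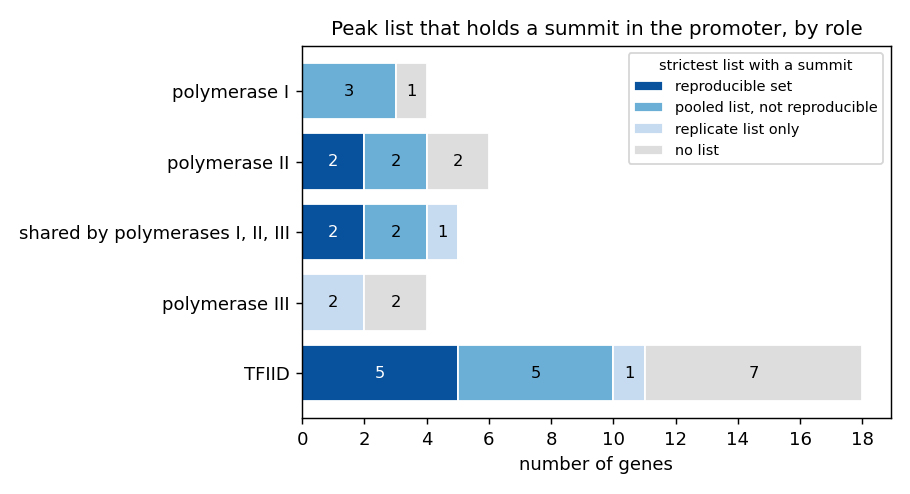
Number of genes (horizontal axis) in each role class (rows) by the strictest peak list that holds a summit in the promoter. Polymerase I and polymerase III have no gene in the reproducible set, and the polymerase III genes have none in the pooled list either, while TFIID has 5 genes in the reproducible set and 7 in no list. The share of all genes in no list is not given.

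Each replicate was also taken alone. With as many of the strongest peaks of each replicate as the reproducible set holds, replicate 1 bound 12 of 37 (32.4%, 18.0 to 49.8%, beside 8.57% of all genes) and replicate 2 bound 8 of 37 (21.6%, 9.83 to 38.2%, beside 8.19%). The genes bound in both were 7: rpb-3, rpb-11, rpb-12, taf-4, taf-8, taf-11.3 and taf-12. Replicate 1 alone added rpb-7, rpb-8, rpb-10, taf-3 and taf-6.2, and replicate 2 alone added rpoa-12. In the full lists a promoter summit was present at 21 of 37 genes in the pooled list (56.8%, beside 26.5% of all genes), 23 in replicate 1 (62.2%, beside 34.3%) and 20 in replicate 2 (54.1%, beside 36.9%), with 18 in both replicates. No share of all genes found in both replicates is given beside the counts of 7 and 18. Those counts only describe the members, and whether such agreement is particular to them was not tested.

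Among the subunits proper to polymerase II, rpb-11 had the strongest peak of all 37 genes. RPB-3 and RPB-11 are the partners that, in yeast and human polymerase II, form the platform on which the enzyme assembles, and both genes were bound. The rpb-11 peak (WBGene00012187, chrII:14059775-14060154, ce11) had a signal of 312 and rank 72 of 2285, with its summit at -120 bp from the gene start, where negative values lie upstream. It ranked 65 in replicate 1 (signal 183) and 82 in replicate 2 (signal 133), with summits at -120 and -97 bp. The rpb-3 peak (WBGene00007971, chrI:8728468-8728847) had a signal of 108 and rank 871, at -106 bp. It had signals of 62.0 in replicate 1 (rank 858) and 41.1 in replicate 2 (rank 1161). Both replicates placed a peak at nearly the same position for each gene, and that of rpb-11 was the higher in both.

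The genes rpb-4 and rpb-7, whose products form the stalk of polymerase II in yeast and human, lay just under the reproducible set. Their pooled peaks had signals of 51.2 at -159 bp and 52.5 at 6 bp, beside 58.7 for the lowest reproducible peak. For rpb-4 the replicates were alike, with ranks of 3056 and 2663. For rpb-7 they were not, with rank 1885 in replicate 1 and 17578 in replicate 2, and its start lies inside the neighbouring gene Y54E10BR.2. The gene of the second largest subunit, rpb-2, and that of the small subunit RPB-9 had no summit in any list. The largest subunit is encoded by ama-1, which the naming rule does not take. Its strongest pooled summit lay at -611 bp with a signal of 54.3, also under the reproducible set.

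Of the genes for subunits shared by polymerases I, II and III, rpb-12 and rpb-8 were bound. The rpb-12 peak (WBGene00009078, chrIV:9146951-9147330) had a signal of 96.1 and rank 1075, at -272 bp. Its signals were 50.6 in replicate 1 (rank 1215) and 45.8 in replicate 2 (rank 981). The rpb-8 peak (WBGene00017830, chrIII:4917961-4918340) was weaker, with a signal of 69.0 and rank 1824, at -143 bp. It was also less even, with a signal of 50.3 in replicate 1 (rank 1226) and 21.1 in replicate 2 (rank 4140), outside the 2285 strongest peaks of replicate 2. The next member, rpb-10, missed the reproducible set narrowly, with a pooled signal of 55.5 at -292 bp, and its replicates also differed widely, with ranks of 1828 and 15662. For rpb-5 the pooled peak lay low in that list (rank 11530, at -334 bp), and rpb-6 had a summit in replicate 1 only (rank 5740).

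Of the 4 polymerase I genes, 3 had a summit in the pooled list (75.0%, interval 19.4 to 99.4%), beside 26.5% of all genes. Their signals lay under the lowest reproducible signal of 58.7, but those of rpoa-12 and rpoa-1 were above the pooled median. The polymerase III genes had 0 of 4 in the pooled list (interval 0 to 60.2%), and the 2 intervals overlap. For polymerase I the pooled signals were 44.6 at rpoa-12, 41.4 at rpoa-1 and 25.9 at rpoa-2, beside a median of 30.9 over all pooled peaks, and rpoa-49 had no summit in any list. RPOA-1 and RPOA-2 are the large subunits that form the core of the enzyme. The rpoa-12 peak ranked 6634 in replicate 1 and 1989 in replicate 2. For polymerase III, the gene of the largest subunit, rpc-1, had summits in both replicate lists (ranks 12471 and 20860) and rpc-2, the gene of the second largest, in replicate 2 only (rank 12473). No summit of any list lay in the promoters of rpc-11 and rpc-25. The ranks of rpc-1 and rpc-2 lie far down lists that include background.

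**Figure D2:**
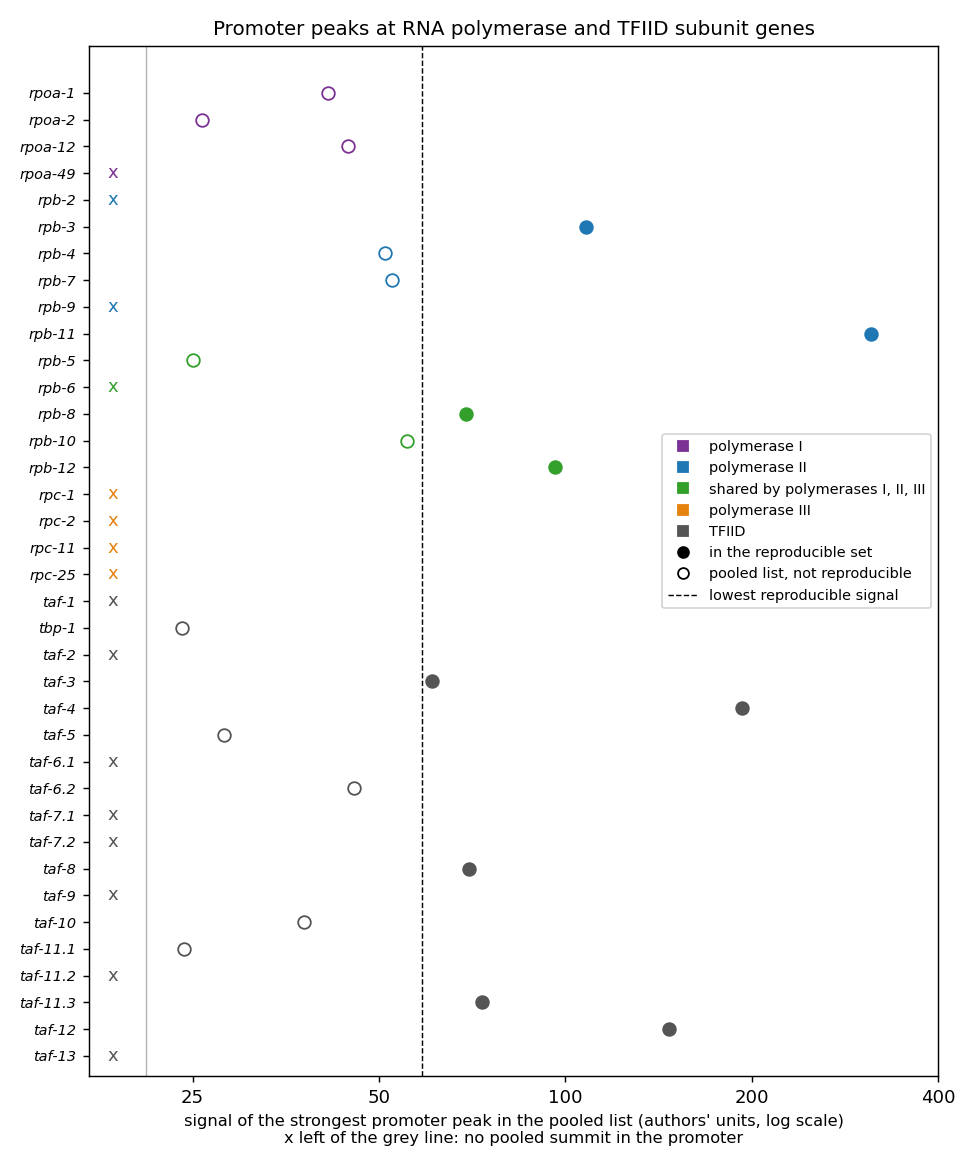
Signal of the strongest promoter peak of each gene in the pooled list (horizontal, log scale, authors' units), with genes in rows grouped by role. Filled circles are in the reproducible set, open circles are in the pooled list but not in the reproducible set, and the dashed line is the lowest reproducible signal (58.7). The circles of rpb-10, rpb-7 and rpb-4 lie just left of the line and those of taf-3 and rpb-8 just right of it.

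Among the TFIID genes the highest peaks were at taf-4 and taf-12, whose products pair through histone folds in yeast and human TFIID. The taf-4 peak (WBGene00006385, chrI:382316-382695) had a signal of 193 and rank 257, at -320 bp. Its signals were 114 in replicate 1 (rank 231) and 77.9 in replicate 2 (rank 327). The taf-12 peak (WBGene00006396, chrIII:11869963-11870342) had a signal of 147 and rank 475, and signals of 72.3 in replicate 1 (rank 638) and 72.0 in replicate 2 (rank 393). Its summit lay at -872 bp, the farthest of the 9, with -911 bp in replicate 1 and -860 bp in replicate 2. No other annotated gene start of any class lay nearer, and it is 1 of the 3 member peaks in no other protein-coding promoter.

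The other bound TFIID genes had peaks near the lower end of the reproducible set. They were taf-11.3 (WBGene00006395, chrIII:10505209-10505588, signal 73.3, -149 bp), taf-8 (WBGene00006390, chrII:9668920-9669299, signal 69.9, -208 bp) and taf-3 (WBGene00006384, chrX:16331894-16332273, signal 60.8, -351 bp). The taf-11.3 peak had signals of 39.6 in replicate 1 (rank 1812) and 28.4 in replicate 2 (rank 2266). The taf-8 peak had signals of 39.6 (rank 1807) and 29.6 (rank 2087), so both genes stayed within the 2285 strongest peaks of each replicate. The taf-3 peak had a signal of 51.6 in replicate 1 (rank 1181) but 20.2 in replicate 2 (rank 4635), and its summits lay at -336 and -546 bp, 210 bp apart. For the 9 bound genes the replicate summits were 2 to 210 bp apart with a median of 18 bp, beside a median of 27 bp over the 2279 reproducible peaks with a peak in both replicates.

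The partners of these TAFs did not all have peaks. TAF-8 and TAF-3 each pair with TAF-10 in yeast or human TFIID, and taf-10 had a pooled signal of 37.9 at -236 bp. TAF-11 pairs with TAF-13, and taf-13 had no summit in any list. Neither TAF-6 gene was bound, and taf-9, whose product pairs with TAF-6, had no summit in any list. The gene of the TATA-binding protein itself, tbp-1, had a pooled summit at 43 bp with a signal of 24.0, near the bottom of that list (rank 12845 of 13500), and none in replicate 1. TAF-1, the largest TAF, and TAF-2 are encoded by genes with no summit in any list, and taf-5 had a pooled signal of 28.1 at 32 bp.

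TAF-6, TAF-7 and TAF-11 are each encoded by more than 1 gene in this worm, and the lists held different numbers of them. Of the TAF-11 genes, taf-11.3 was bound, taf-11.1 had a pooled signal of 24.2 at -124 bp and no summit in replicate 2, and taf-11.2 had none in any list. Of the TAF-6 genes, taf-6.2 had a pooled signal of 45.5 at -132 bp and ranks of 2101 and 3228 in replicates 1 and 2, while taf-6.1 had no summit. Of the TAF-7 genes, taf-7.2 had a summit in replicate 1 only (rank 13727) and taf-7.1 had none.

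For the 12 members in no list, the nearest pooled summit on either side ranged from -7597 bp (taf-2) to 4246 bp (rpb-2). The closest were 643 bp downstream of the rpc-11 start and at -1257 bp from rpoa-49. For rpc-25 it lay 1505 bp downstream and belonged to the reproducible set.

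**Figure D3:**
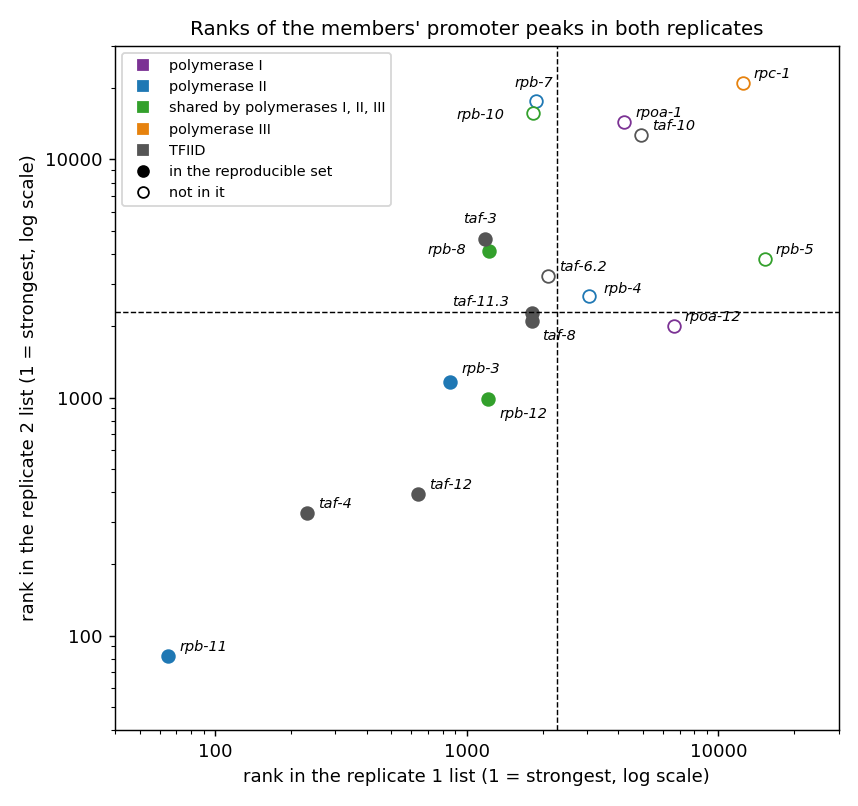
Rank of the strongest promoter peak in the list of replicate 1 (horizontal) and replicate 2 (vertical), both on log scales with 1 the strongest, for the 18 genes with a promoter summit in both. Dashed lines are drawn at rank 2285. The 7 genes in the lower left, within both lines, are bound, while rpb-8 and taf-3 are bound but lie above the horizontal line, and rpb-7 and rpb-10 have the widest gaps between replicates.

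Summits of the bound genes lay close upstream of the start. Their median distance was -208 bp (range -872 to -106 bp), beside -242 bp over all 1717 bound protein-coding genes. Within 500 bp upstream lay 8 of the 9 (88.9%), beside 76.4% of all bound genes, and none lay downstream of the start, where 86 of the 1717 had theirs. All 9 summits lay outside protein-coding genes, and all 9 peaks were 380 bp wide. The median signal was 96.1 for the 9 genes and 98.3 for all bound genes, so the members' peaks were of ordinary height for this set.

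**Figure D4:**
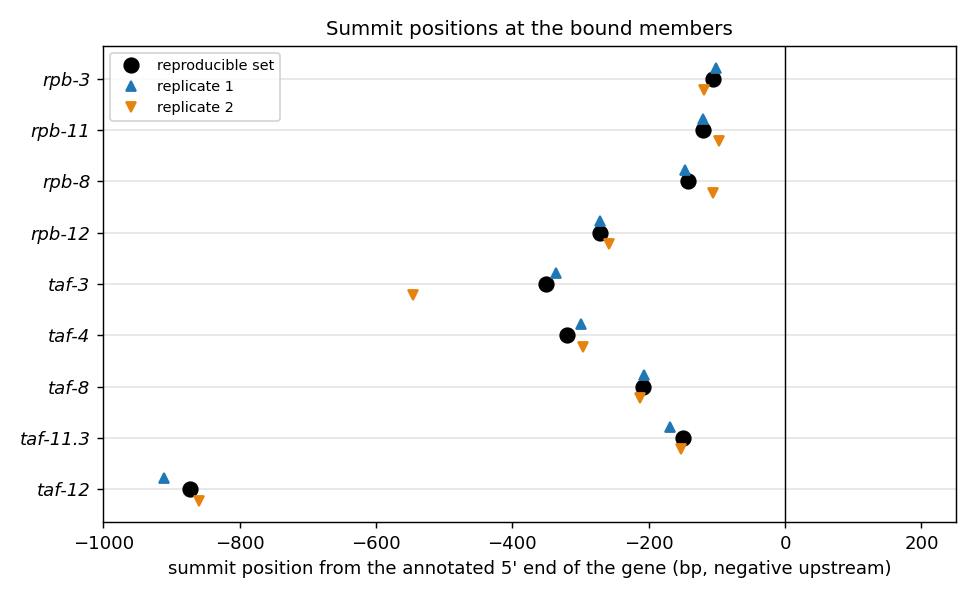
Summit position from the annotated 5' end (horizontal, bp, negative upstream) for the 9 bound genes (rows) in the reproducible set (circles), replicate 1 (upward triangles) and replicate 2 (downward triangles). Most symbols of a row lie close together, within 500 bp upstream of the start, taf-12 lies near -872 bp in all 3, and the replicate 2 summit of taf-3 stands apart at -546 bp.

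A summit in the promoter of a second gene cannot be given to either of them, and 6 of the 9 peaks were of this kind (66.7%, beside 53.1% of all bound genes). The peaks of rpb-3, rpb-12, taf-4 and taf-11.3 lay between divergent genes. The other starts belonged to pas-4, a proteasome subunit gene (at -171 bp, beside -106 bp for rpb-3), aly-2, a gene of an mRNA export factor (-327 bp, beside -272 bp for rpb-12), pqn-59 (-604 bp, beside -320 bp for taf-4) and urm-1, a gene of a ubiquitin-related modifier (-81 bp, beside -149 bp for taf-11.3). Only for taf-11.3 was the other protein-coding start the nearer. The rpb-3 summit also lay 50 bp downstream of the start of an annotated non-coding RNA gene, C36B1.16.

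For rpb-11, rpb-8 and rpb-12 the other gene followed the member on the same strand. W01G7.4 begins 115 bp after the end of rpb-11, rars-1, the arginyl-tRNA synthetase gene, 66 bp after rpb-8, and daf-10, a gene of ciliary transport, 123 bp after rpb-12. These members are only 536 to 766 bp long, so their summits stand at -774 bp (W01G7.4), -974 bp (rars-1) and -930 bp (daf-10) from the start of the following gene and lie within its window. In each case the summit was nearer to the member.

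Members beside a divergent neighbour were bound in 4 of 9 cases, beside 21.7% of all genes with a divergent protein-coding gene within 1000 bp upstream. With a same-strand gene within 1000 bp upstream 2 of 15 were bound (rpb-8 and taf-8, beside 5.80%), and with no gene in that stretch 3 of 10 (rpb-11, taf-3 and taf-12, beside 5.95%). The 3 members that start inside another gene, rpoa-49, rpb-7 and taf-5, were not bound (beside 5.68%). How far these layouts bear on the count of bound members was not tested.

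Other genes of the transcription machinery were bound too. In a list by name of 60 genes for general factors, Mediator, elongation factors and polymerase subunits that the naming rule does not take, 11 were bound (18.3%, beside 8.60% of all genes). The polymerase subunit genes in it, ama-1, rpac-19 and rpac-40, were not among the 11. Mediator is the complex that links activators to polymerase II. Of the 20 genes named mdt, for Mediator, 6 were bound (mdt-1.2, mdt-6, mdt-9, mdt-19, mdt-22 and mdt-26, signals 84.2 to 121). The summits of mdt-6, mdt-9, mdt-19 and mdt-26 also lay in promoters of other genes, so they cannot be given to the Mediator gene alone. Those of mdt-6 and mdt-19 lay far upstream, at -887 and -798 bp. The genes named gtf, brf or snpc, of general factors of polymerases II and III, had 1 of 18 (snpc-3.4, signal 89.9 at -14 bp). This group and the mdt group were set by name only, so neither count covers every gene of its kind. Other general factor genes, such as cdk-7 and ttb-1, were listed singly. Of the genes listed singly 4 of 22 were bound. These were pqn-51, signal 335 at -16 bp and thus above rpb-11, cdk-7, the kinase of TFIIH (233 at -21 bp), emb-5, the homologue of the elongation factor SPT6 (73.7 at -348 bp), and cdk-9, the kinase that releases paused polymerase (68.3 at -122 bp). The pqn-51 summit also lay in the promoter of K11D12.14, and that of cdk-9 in the promoter of hxk-2. Neither summit can be given to 1 gene alone. The cdk-9 peak ranked 1218 in replicate 2 but 3442 in replicate 1, outside the 2285 strongest peaks of replicate 1. The TFIIB gene ttb-1 had a pooled signal of 43.6 at -260 bp, under the reproducible set.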

How the data were processed

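Peaks came from TF ChIP-seq of eGFP-NHR-77 in L1 larvae, 1 group of 2 biological replicates, which the labels number as separate samples. Per the notes deposited with each sample, the 4 ce11 lists used here (pooled, 2 replicates and IDR-thresholded) were called on alignments against a control, which was not analysed here. Which aligner, caller and IDR cutoff they used is not stated in the sources at hand. The deposited signal of each peak is the authors' value, and was used only to rank peaks and describe them. The deposited −log10 q value only broke ties in rank. The ce10 lists were not used.

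Positions were compared with the ce11 sequence (WBcel235, RefSeq) and Ensembl release 115, and all peaks lay within the chromosome lengths. Summits were assigned to every protein-coding gene on 6 nuclear chromosomes and intervals computed with Python 3.11.15 and SciPy 1.17.1. Since genes are not replicates and there is 1 group, no test was run. Members, roles, words and gene lists were chosen with earlier results of these data known. The assignment was tested on simulated data and returned every distance it was given.

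The text names all members, the genes that share their summits, and the bound genes of the other list. Alternatives took the 1142 strongest peaks of the reproducible set, left out a replicate, used a window of 500 bp before and 100 bp after the start (narrow) or 2000 and 500 bp (wide), kept nearest starts only, or used peak intervals in place of summits, with 2 overlap minimums.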

Additional observations from a re-analysis of the deposited data

How the results depend on the processing

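The number of bound members was 9 (beside 8.60% of all genes), and it was 8 to 12 under 7 of 8 alternatives. With the 1142 strongest peaks it was 5, when rpb-8, taf-3, taf-8 and taf-11.3 were lost (beside 4.68% of all genes). Leaving out replicate 1 gave 8 members (beside 8.19% of all genes) and leaving out replicate 2 gave 12 (8.57%). The nearest-start rule gave 8 (taf-11.3 lost, beside 6.22%), the narrow window 8 (taf-12 lost, 6.87%), the wide window 9 (11.4%) and peak intervals 9 (9.27% with any overlap). Members with a summit in a second promoter numbered 6 of 9, against 3 of 8 with the narrow window and 0 of 8 with nearest starts, which allow none by construction. They numbered 9 of 12 without replicate 2, 6 of 8 without replicate 1 and 4 of 5 with the 1142 strongest peaks. With the wide window and with any overlap of peak intervals they stayed at 6 of 9. The median distance was -208 bp. It was -272 bp with the 1142 strongest peaks, -178.5 bp with the narrow window, -272 bp with the wide window, where a summit of signal 86.4 at -1809 bp replaced that of taf-11.3, -240.0 bp with nearest starts, and -207.0 to -196.0 bp when a replicate was left out. No paired analysis was possible because the study has 1 group. Depth is unknown, so absence from a list does not show absence of binding.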

Other observations

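Several members lie close behind another gene on the same strand, a layout that in this species is common within operons, where one promoter serves a chain of genes. With a gap of at most 200 bp, a limit set after the data were seen, 8 members were of this kind: rpb-2, rpb-9, rpc-2, rpc-25, tbp-1, taf-6.1, taf-9 and taf-13. None of the 8 was bound, beside 4.18% of the 1868 protein-coding genes in that position, and only tbp-1 had a pooled summit (beside 22.3%). At the start of the first gene of each chain the reproducible set had a summit in 0 of 8 cases, beside 8.60% of all protein-coding genes. The pooled list had a summit in 3 of 8, beside 26.5%. These shares are over all protein-coding genes, and none is given for first genes of such chains. The first genes with a pooled summit were T20B12.3 before tbp-1 (signal 40.6 at 5 bp), eri-3 before taf-6.1 (38.4 at -61 bp) and ccm-3 before taf-13 (24.1 at -544 bp). The gene just before rpc-25 is tftc-3, itself named for the polymerase III factor TFIIIC, and neither it nor the first gene of that chain, zhit-3, had a pooled summit. Operon annotation was not used here, and which of these genes share a transcript was not tested.

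By chromosome, the bound members were 2 of 9 on I, 2 of 8 on II, 3 of 8 on III, 1 of 5 on IV, 0 of 4 on V and 1 of 3 on X. Over all protein-coding genes the share bound was 12.1% on I and III, 8.47% on II, 8.29% on IV, 5.77% on V and 7.29% on X.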
